A study of Chlorocebus sabaeus with 6 samples.

Results

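SHOC2 is the scaffold protein named in the title of the study, and its transcript was followed here as 1 row of the deposited expression table out of 51520. The row was taken by its identifier, ENSP00000358464_1, which is the Ensembl ID of the human SHOC2 protein with a suffix. It lies on chromosome 9 from 103906053 to 103952857 in the positions of the deposited table, whose genome build is not given in the sources used here. The table pairs no identifier with a gene symbol, and 0 of its 51520 identifiers matched a gene in the RefSeq table for mChlSab1.0.hap1. That table also places the SHOC2 gene of the green monkey on chromosome 9. No other row overlapped it.

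The samples were 6 libraries of messenger RNA from COS-1, a fibroblast-like kidney line of the green monkey Chlorocebus sabaeus that carries genes of the tumour virus SV40. By the labels, 3 libraries came from lentivirus-treated cells and 3 from control cells with no treatment. The cells of all 6 libraries had been starved of serum for 14 h. They were then stimulated for 90 min with 2 ng/ml of EGF, epidermal growth factor. Both groups were thus sampled after EGF and no unstimulated sample was compared. What the lentivirus carried is not in the labels, and the control cells are labelled as having received nothing, so an effect of infection and an effect of the cargo cannot be told apart. Nor do the labels state that replicates were grown separately. The p-values from limma set the difference between groups against the spread among these libraries, and that spread may be only technical. Markers of fibroblasts or of other cell types were not analysed here, because no row is tied to a symbol.

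SHOC2 is built almost entirely of leucine-rich repeats and has no enzymatic activity. In cells stimulated by growth factors it joins the RAS-related GTPase MRAS and the catalytic subunit of protein phosphatase 1 in a complex that removes an inhibitory phosphate from RAF kinases. RAF so released phosphorylates MEK, and MEK phosphorylates ERK1/2, the kinases through which EGF switches on its early genes. A transcript level says nothing direct about the amount of the protein or about signalling through it.

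Lentivirus-treated cells held less SHOC2 transcript than control cells, at 63.4% of the control mean. SHOC2 stood at 10.5, 9.66 and 10.5 FPKM in lentivirus-treated replicates 1, 2 and 3, against 14.2, 15.6 and 18.6 FPKM in control replicates 1, 2 and 3. FPKM are fragments per kilobase of the row, scaled to library size. All 3 lentivirus-treated libraries lay below all 3 controls, with a gap between the groups, and no lentivirus-treated library came near 0. The means were 10.2 ± 0.487 FPKM in lentivirus-treated cells and 16.1 ± 2.24 FPKM in control cells (SD, n = 3 each). The spread among the controls was wider, and control replicate 3 was the highest of the 6 libraries. In RNA from whole cultures, less transcript in every cell and loss of the transcript from some of the cells cannot be told apart.

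**Figure D1:**
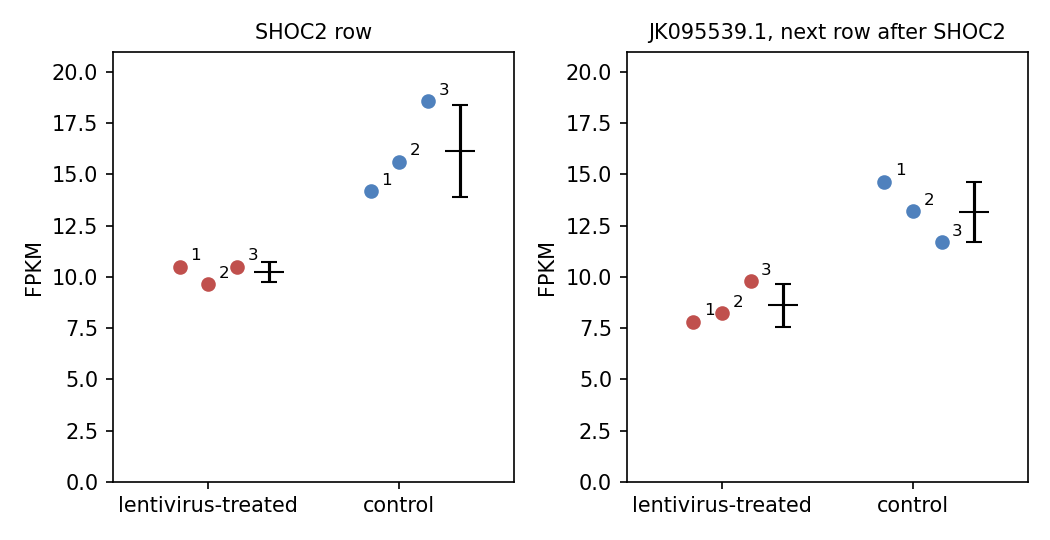
FPKM of the SHOC2 row (left) and of JK095539.1, the next row after it on the chromosome (right), in lentivirus-treated and control libraries. Points are libraries labelled with their replicate number, and the black marks are the group mean and SD (n = 3). In both rows the 3 lentivirus-treated libraries lie below the 3 controls.

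The fall of SHOC2 passed the test across the whole table, narrowly. On log2(FPKM + 1) the change was -0.60 with a standard error of 0.11 and a 95% interval of -0.87 to -0.34, and the adjusted p from limma with Benjamini-Hochberg adjustment was 0.0389. In terms of FPKM + 1, that interval runs from 54.7% to 79.2% of the control level. Among the 28434 rows with a mean of at least 1 FPKM, 6.48% were called in either direction at an adjusted p under 0.05 and 3.59% were called lower (2.89% higher), so a call of this kind is not rare in these libraries. Groups that do not overlap were more common still, at 31.6% of tested rows. The two-sided exact permutation test gave SHOC2 p = 0.10, the smallest value that 3 against 3 libraries allow.

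The call depended on the set of libraries and on what was tested beside SHOC2. When any 1 of the 6 libraries was left out, the change stayed between -0.69 and -0.50 but the limma adjusted p ran from 0.0697 to 0.128. Loss of the call was general in those fits: 48 to 118 rows were called over the whole table, against 1842 with all libraries. Without control replicate 3, the library with the highest SHOC2 value, the change was -0.50 and the limma adjusted p 0.0849. When rows with overlapping positions were summed to 16073 tested loci, the SHOC2 values stayed as they were, since nothing overlaps the row, and the limma adjusted p was 0.0117. In that test 19.5% of all loci were called (10.6% of all loci as lower), and SHOC2 kept its call whichever 1 library was left out, with limma adjusted p-values of 0.0186 to 0.0466. The share of all loci called in those fits is not given here.

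**Figure D2:**
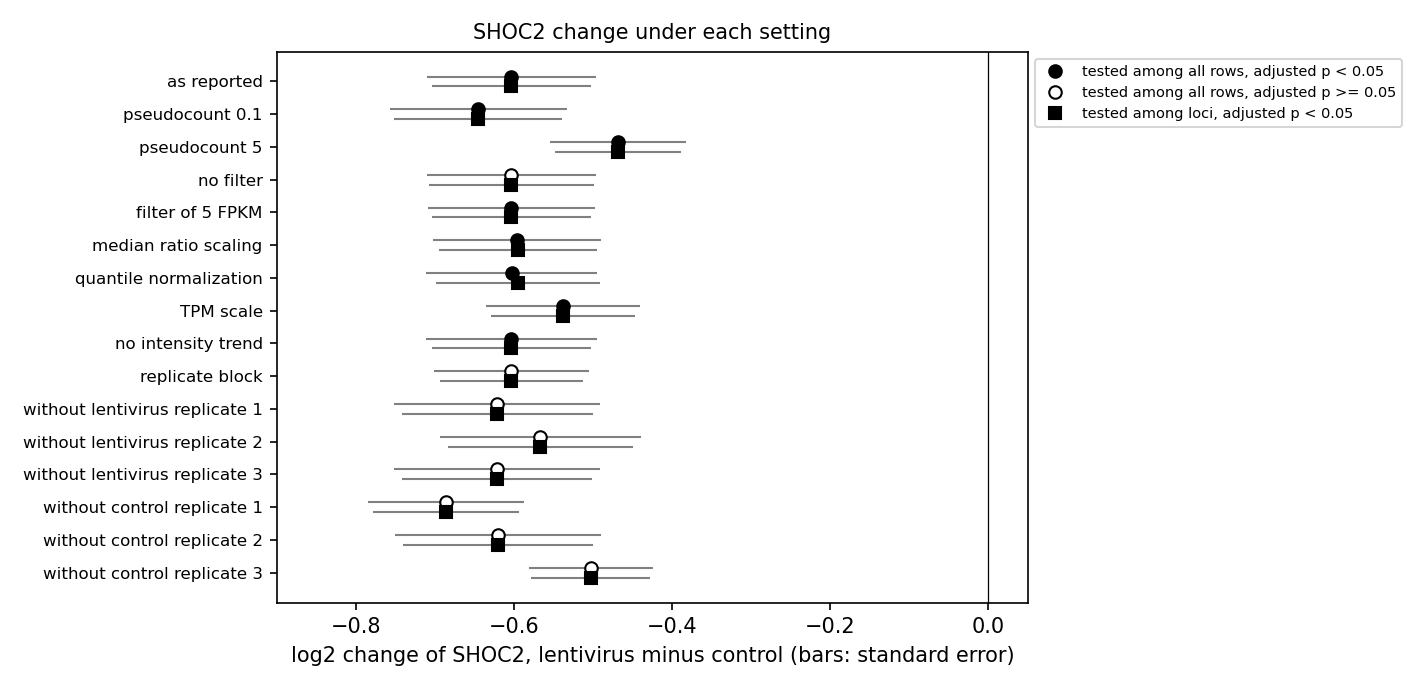
The log2 change of SHOC2, lentivirus minus control, under each setting, with its standard error as a horizontal bar. Circles are the test among all rows and squares the test among loci; filled marks have an adjusted p under 0.05. The change lies between -0.69 and -0.47 throughout, and the open circles are the settings in which the test among rows missed the threshold.

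SHOC2 is a transcript of middling abundance in these cells. In the lentivirus-treated libraries it ranked above 48.5%, 46.0% and 48.6% of the 13509 tested rows with human protein identifiers, and in the controls above 55.8%, 58.5% and 62.6% of them. The median of those rows had a control mean of 11.3 FPKM. Taken as a share of all FPKM in a library, SHOC2 accounted for 4.78 ± 0.259 units per 1000000 in lentivirus-treated cells and 7.43 ± 0.960 units per 1000000 in control cells (SD, n = 3 each).

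Over all 28434 tested rows, 1289 (4.53%) had a more negative change than SHOC2, and so did 333 (2.47%) of the 13509 with human protein identifiers. Among rows that were themselves called lower, SHOC2 was less far out: the median change of the 1021 rows called lower was -0.45 log2, and 269 of them (26.3%) fell further than SHOC2. Of 2511 other rows whose control mean lay within 1.2-fold of that of SHOC2, 98 were called lower (3.90%) and 86 higher, and 120 (4.78%) had a more negative change than SHOC2, whether called or not. Over the other 1049 tested rows on the same chromosome the median change was 0.022 log2, with 26 called lower (2.48%, beside 3.59% of all tested rows) and 33 called higher.

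**Figure D3:**
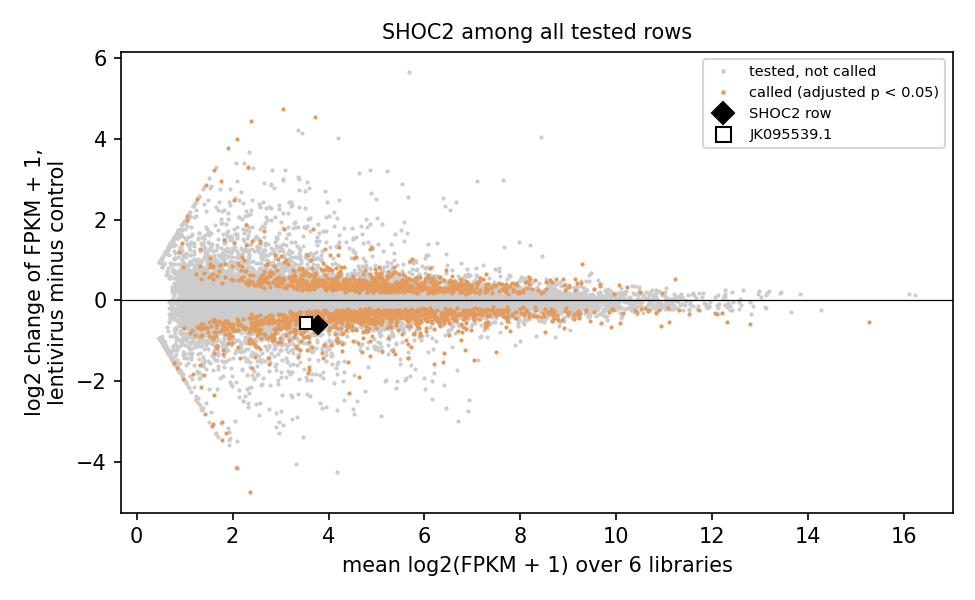
The log2 change of FPKM + 1, lentivirus minus control, of each of the 28434 tested rows (vertical) against its mean log2(FPKM + 1) over the 6 libraries (horizontal). Orange points were called at an adjusted p under 0.05. SHOC2 (black diamond, -0.60) lies within the lower band of called rows and not at its edge. JK095539.1 (open square, -0.56) lies near it but was not called.

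Another tested row lies directly beyond the SHOC2 row. JK095539.1, a row of 632 bases from 103954067 to 103954698, starts 1210 bases past the end of SHOC2 and overlaps no row. The files do not say which gene it belongs to. JK095539.1 stood at 7.82, 8.24 and 9.78 FPKM in lentivirus-treated replicates 1, 2 and 3, against 14.6, 13.2 and 11.7 FPKM in control replicates 1, 2 and 3. Its groups did not overlap either, and its lentivirus-treated mean was 65.3% of the control mean, close to the figure for SHOC2. The log2 change was -0.56 with a standard error of 0.12, and the limma adjusted p of 0.0522 just missed the threshold among rows. With a filter of 5 FPKM in place of 1 the row was called at an unaltered change of -0.56 (limma adjusted p = 0.0429). Under that filter 2058 of 20406 rows were called, beside 1842 of 28434 with the filter of 1 FPKM. That filter and the test among loci were the only 2 of 16 alternatives that called it. It was called in 0 of the 6 fits without 1 library (limma adjusted p = 0.0870 to 0.155). Among loci the same values gave a limma adjusted p of 0.0180, in a comparison chosen after the values had been seen.

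The difference was of about the same factor in both rows, but the order of the libraries within a group differed. The ratio of JK095539.1 to SHOC2 was 0.843 ± 0.0933 in lentivirus-treated libraries and 0.836 ± 0.201 in control libraries (SD, n = 3 each; two-sided exact permutation p = 0.90). Control replicate 3 had the highest SHOC2 value and the lowest JK095539.1 value of the controls. The ratios of the controls alone ran from 0.630 to 1.03, a wide spread beside the difference between the group means.

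The rows around SHOC2 went in both directions. Of 21 rows within 1 Mb, 18 passed the filter on low values, 17 of them before SHOC2 and 1, JK095539.1, after it. Their median change was -0.0023 log2, beside -0.00097 log2 over all tested rows, but many of them overlap each other. The 6 that overlap no other row had a median of -0.29 log2, and 66.7% of the 6 were negative. Of the 18, 2 were called lower by limma (11.1%, beside 3.59% of all tested rows) and 0 higher (2.89% of all), and both called rows are among those 6. At an unadjusted limma p under 0.05 there were 8 of the 18, beside 24.2% of all tested rows. In 3 of the 18 all lentivirus-treated libraries lay below all controls (16.5% of all tested rows), and in 5 they lay above (15.1% of all). No neighbour had a more negative change than SHOC2.

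The closest rows before SHOC2 had small estimated changes. The 3 tested rows between 70.3 and 132 kb away had changes of -0.16 to -0.02 log2, and none was called (limma adjusted p = 0.372 to 0.970). The row from 103831796 to 103833630 had a wide 95% interval, -0.57 to 0.53 log2, so a sizeable change in it is not excluded. The nearest of the 3 that overlaps no other row, ENSP00000358532, stood at 3.42, 4.26 and 3.85 FPKM in lentivirus-treated libraries, against 4.13, 4.46 and 4.61 FPKM in control libraries. Its groups overlapped, and its change of -0.16 log2 had a 95% interval of -0.40 to 0.08. The most distant group, 5 rows between 850 and 865 kb away, had changes of -0.10 to 0.02 log2, and again none was called.

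The 2 called neighbours lie side by side, 695 and 697 kb before SHOC2. The longer of them, a row with a human protein identifier from 103131732 to 103209228, stood at 18.9, 19.1 and 18.4 FPKM in lentivirus-treated libraries, against 24.9, 25.9 and 25.7 FPKM in control libraries. It fell by 0.42 on the log2 scale (limma adjusted p = 0.0146). The shorter one, from 103210428 to 103210722, fell by 0.59 (limma adjusted p = 0.0400), with groups that did not overlap. Calls were thus found at separate places in the neighbourhood, with uncalled rows between them and SHOC2. Both lost their call whichever 1 of the 6 libraries was left out, where 48 to 118 rows were called over the whole table, against 1842.

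Rows in the middle of the interval had positive changes, none of which was called at the settings used here. The 5 rows between 444 and 458 kb before SHOC2 had changes of 0.27 to 1.12 log2, with limma adjusted p-values of 0.0504 to 0.308. In 3 of these 5 rows all lentivirus-treated libraries lay above all controls, as in 15.1% of all tested rows. Those 3 rows form a single run of overlapping positions, so they may share reads. The row from 103447805 to 103448505 was called higher at a pseudocount of 5 and under median ratio, quantile and TPM scaling (limma adjusted p = 0.0411 to 0.0483). The one with a human protein identifier, from 103435383 to 103447982, stood at 5.24, 5.70 and 4.83 FPKM in lentivirus-treated libraries, against 4.03, 3.65 and 3.51 FPKM in control libraries (limma adjusted p = 0.0602).

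**Figure D4:**
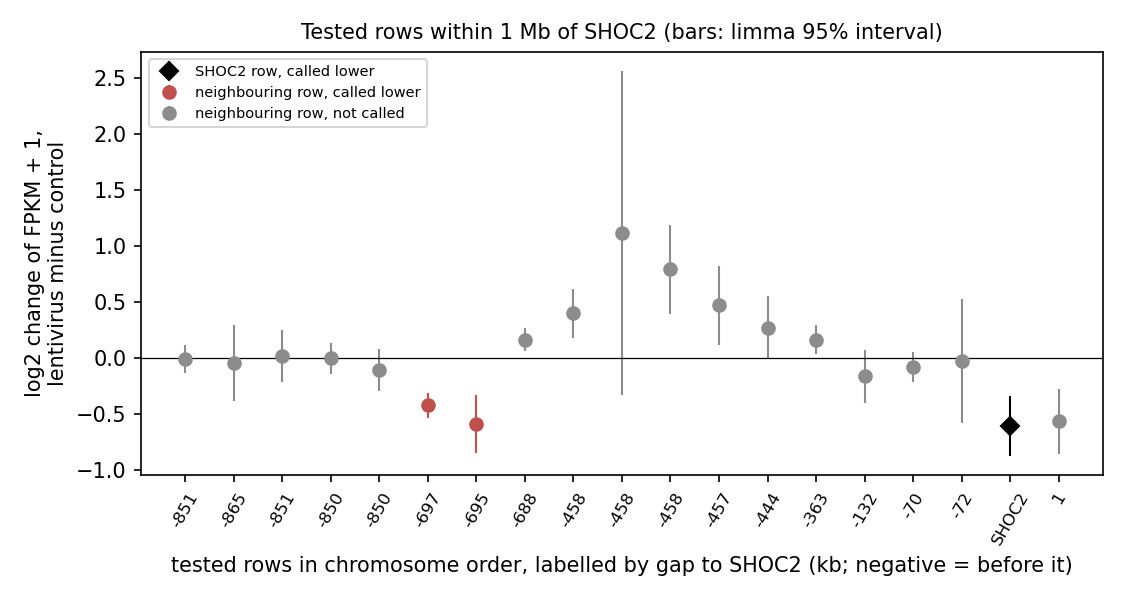
The log2 change of FPKM + 1, lentivirus minus control, of SHOC2 and of the 18 tested rows within 1 Mb, in chromosome order; the horizontal labels give the gap to SHOC2 in kb and the bars are 95% intervals from limma. SHOC2 and the row directly after it sit near -0.6, the 3 rows directly before it near 0, and the 2 red rows are the called neighbours.

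Set against its neighbours within each library, SHOC2 stood lower in lentivirus-treated cells. The SHOC2 value minus the median of the 18 neighbours was -0.74 ± 0.086 log2 in lentivirus-treated libraries and -0.21 ± 0.19 log2 in control libraries (SD, n = 3 each), a difference of -0.53 log2. The groups did not overlap (two-sided exact permutation p = 0.10, the smallest possible). With the 6 neighbours that overlap no other row, which include both called rows and JK095539.1, the difference was -0.11 log2, and with the 10 neighbours within 500 kb it was -0.98 log2. When each neighbour was first centred on its own mean over the 6 libraries, an alternative chosen after the values had been seen, the difference was -0.63 log2 with 18 neighbours and -0.37 log2 with those 6.

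On the RefSeq annotation of mChlSab1.0.hap1, the named protein-coding neighbours of SHOC2 are PDCD4, an inhibitor of translation initiation, before it and ADRA2A, an adrenergic receptor, after it. BBIP1, a subunit of the BBSome that serves primary cilia, overlaps SHOC2 there, as does a protein-coding locus with no gene name. The rows of the deposited table are not tied to these symbols, and the table gives no strand, so reads of an overlapping gene could not be told apart from reads of SHOC2 wherever both cover the same bases.

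Many rows followed the same course over the 6 libraries as SHOC2. Likeness was measured as Pearson's r of log2(FPKM + 1) over the 6 libraries, among 4784 rows with human protein identifiers that overlap no other row, average at least 5 FPKM and reach 1 FPKM in every library. An r of at least 0.95 was reached by 124 rows (2.59%), and one of at most -0.95 by 153 rows (3.20%). The 6 points are the same libraries for every row and fall into the 2 groups, so r reflects the difference between groups as well as the spread within them.

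The row most like SHOC2 lies on chromosome 27 from 24947644 to 24989044 (r = 0.997). It stood at 18.2, 18.0 and 18.2 FPKM in lentivirus-treated libraries, against 19.4, 20.1 and 20.7 FPKM in control libraries, a far smaller difference of -0.14 log2. The next, on chromosome 8 from 51782436 to 51807062 (r = 0.994), stood at 9.29, 9.21 and 9.59 FPKM in lentivirus-treated libraries, against 12.9, 13.5 and 16.0 FPKM in control libraries. Its difference was -0.54 log2, close in size to that of SHOC2.

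The 2 rows with the most opposite course both lie on chromosome 20. One, from 40951934 to 41006366 (r = -0.994), stood at 23.9, 24.5 and 23.4 FPKM in lentivirus-treated libraries, against 19.6, 19.2 and 17.7 FPKM in control libraries, a difference of 0.33 log2. The other, from 6826754 to 6933958 (r = -0.993), stood at 11.9, 11.8 and 11.5 FPKM in lentivirus-treated libraries, against 9.58, 9.12 and 8.06 FPKM in control libraries. Its difference was 0.36 log2. These 4 rows were chosen for their course over the same libraries, so their differences between groups are a description. The limma test over all rows included them (adjusted p = 0.135, 0.0335, 0.0360 and 0.0522 in the order above). Rows picked for their course cannot test it, so nothing is drawn from these values.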

How the data were processed

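The authors deposited 1 table of FPKM values with 1 column per library. The submitters' processing notes name Cufflinks 2.1.1, Cuffdiff, Bowtie2 2.1.0.0, TopHat2 2.0.10 and CASAVA, without roles or order. The build, and whether libraries were scaled to each other, is not given in the sources used here. The columns summed to between 2094230 and 2206925 FPKM. FPKM keeps no read counts, so depth is unknown and counting intervals are left out. Columns were matched to samples by the replicate numbers and group prefixes of their names.

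Rows with a mean of at least 1 FPKM were tested on log2(FPKM + 1), which understates changes of low rows, with limma 3.58.1 in R 4.3.3 (lmFit and a trended eBayes). The group was the only term, p-values were two-sided, and Benjamini-Hochberg adjustment ran over all 28434 rows, with calls at an adjusted p under 0.05. The procedure was also run on simulated data with independent noise in each row. Rows that share reads were not imitated there, so nothing is drawn from that run here. Named rows were SHOC2, the nearest tested row on each side that overlaps no other, and the 2 highest and 2 lowest r; the called neighbours and the row 458 kb before SHOC2 were picked with their values in view. SHOC2 and all lists were chosen with earlier results of these data known. The 5 planned gene lists (68 genes of the SHOC2 complex and the ERK cascade, among others) were not analysed, as no row has a symbol. Alternatives covered the pseudocount, filter, scaling, trend, left-out libraries and a replicate block.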

Additional observations from a re-analysis of the deposited data

How the results depend on the processing

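SHOC2 was lower in lentivirus-treated cells under all 15 alternatives, with changes of -0.69 to -0.47 log2. Its locus, which holds only the SHOC2 row, was called in all 15 (limma adjusted p = 0.0101 to 0.0466). At the main settings 19.5% of all tested loci were called. The share under each alternative is not given here, so the count of 15 cannot be set against it. Among rows it was called in 7 of 15. With no filter its change was -0.60 (limma adjusted p = 0.0773), where more rows enter the adjustment, and without 1 library it was -0.69 to -0.50. With the replicate number as a block it was also -0.60 (limma adjusted p = 0.131); the cause was not tested. The numbers do not show pairing: deviations of same-numbered libraries correlated at 0.13, -0.028 and 0.0028. Rows called over the table numbered 1842, 1197 with no filter, 48 to 118 without 1 library and 0 with the block, where 6084 had an unadjusted limma p under 0.05. Called neighbours numbered 2, then 3 at a pseudocount of 5 and under median ratio, quantile and TPM scaling (1 higher and 2 lower in each), 3 with a filter of 5 FPKM (all lower), 1 with no filter, 1 without the trend, 0 with the block and 0 in each fit without 1 library, with 7 and 6 to 10 at an unadjusted limma p under 0.05. SHOC2 minus its neighbours was negative in 19 of 19 alternatives: -0.98 log2 with a window of 500 kb (10 neighbours), -0.11 with the 6 lone neighbours and -0.37 with those centred, and otherwise -0.64 to -0.41. The centred versions and the locus test of JK095539.1 were chosen after seeing the data. The changes of SHOC2, of the nearest lone row on each side and of the rows chosen by r kept their direction. The median change of the neighbours took either sign, from -0.024 log2 without control replicate 3 to 0.054 log2 without control replicate 2. No row overlapped SHOC2, so the planned test of such rows had nothing to test. Depth is unknown, so the part of counting error in the spread was not estimated.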
